A study of Rattus norvegicus with 12 samples.

Results

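Fatty acid oxidation genes of mitochondria and peroxisomes were followed in the renal cortex of lean rats, obese rats and obese rats given an SGLT2 inhibitor. The members were picked by name for their known roles, with earlier results of these data known, as genes of fatty acid activation, the carnitine shuttle, beta-oxidation, electron transfer, the peroxisome and 2 genes of fuel choice and uncoupling. All 43 genes of this list were found among the 13151 genes of the table. Of them 42 passed the filter on low values, which asked for 4 or more rats with a value of 1 or more, as did 11633 genes in all. The remaining member, Abcd2, an importer of very long chain fatty acids into peroxisomes, lay between 0.449 and 2.22 and was not tested.

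Total RNA of the renal cortex was sequenced from 12 male rats at 32 weeks of age, 4 in each of 3 groups. ZL rats were Zucker lean controls without treatment. ZF rats were Zucker fatty rats without treatment, obese and not diabetic, and the ZF-SGLT2i rats were ZF rats that took canagliflozin with their food at 10 mg/kg/day for 8 weeks from week 24. Their food per body weight was matched to that of untreated ZF rats. The submitters' design text calls ZF rats leptin-deficient while the study's methods call them leptin receptor-deficient. ZL rats and ZF rats of the time course in the study had earlier kidney biopsies, the ZF rats of the drug study were a separate purchase, and the study names the untreated ZF rats of the sequencing in both ways, as ZF, like those of the time course, and as nontreated ZF, like those of the drug study. Rats are named by the numbers of their columns, which run from 1 to 4 in ZL and from 2 to 5 in ZF and are 2, 3, 4 and 6 in the treated group.

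Between 8824980 reads (ZF rat 5) and 12210257 reads (ZL rat 2) fell on genes, if the smallest value above 0 in a rat, of which every other value was a multiple, is taken as 1 read. All read numbers here rest on that step. Values are given in scaled CPM, CPM (reads scaled to the library total) with a further library scaling by the authors. Folds come from log2(value + 1), which understates the change of genes with low values. Values are not corrected for transcript length, since no lengths were at hand, so the gene given below with the highest value of a marker list need not have the most transcripts. The limit that a count of 0 allows, 3 reads, was worth 0.256 to 0.340 in a rat, and such limits cover counting error only.

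The tissue carried the markers of renal cortex. Lrp2, the endocytic receptor megalin of the proximal tubule, had the highest value of the proximal tubule markers, with a mean of 8337. Of 13 muscle markers 8 were not in the table, and the other 5, none of which passed the filter, summed to between 0.567 and 1.62. Of 9 fat cell markers Lep and Retn were not in the table. The fat cell genes Plin1, Fabp4 and Cfd lay between 0 and 0.780, Adipoq, the gene of adiponectin, between 8.80 and 17.4, Cidec between 0.437 and 45.8 and Lpl between 49.6 and 76.3. The highest value of that list was in Pck1, a gene of glucose synthesis that the kidney also uses, at 972 to 4712, and the list's sums averaged 1748, 2693 and 4016 in ZL, ZF and ZF-SGLT2i. Pck1 was higher and Cidec and Lpl were lower in ZF than in ZL, and none of the 4 tested was called with treatment by limma (2 at an unadjusted p under 0.05). In whole cortex, fewer cells of a type and less RNA per cell cannot be told apart.

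Fatty acids are first joined to coenzyme A, then carried into mitochondria as carnitine esters, and there shortened in repeated cycles of dehydrogenation, hydration, a further dehydrogenation and thiolysis. The electrons pass through the electron transfer flavoprotein and its oxidoreductase to the respiratory chain, while peroxisomes shorten very long and branched chains by a parallel set of enzymes. Proximal tubule cells make most of their ATP this way, and the nuclear receptor PPAR alpha is the best known activator of the genes.

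PPAR alpha binds, with its partner RXR, to a direct repeat of AGGTCA with a base between the copies, so the members' promoters were searched for it. RefSeq promoter windows (GRCr8), the 250 bases before each start, were at hand for 39 of the 43 members. The repeat was searched on both strands. An exact copy was in 17 of 33469 windows (0.0508%) and in no member. With up to 1 mismatch it was in 123 windows (0.368%), among them 2 of the 39 members, Acot12 and Acadvl. The windows of these genes are printed below with the match in capitals, because Acot12 had its lowest group mean in ZF rats while Acadvl was called in no comparison. The Acot12 window is chr2:24721709-24721958 on the plus strand, with the match on the minus strand from 105 bases before the start, and the Acadvl window is chr10:55236706-55236955 on the minus strand, with the match in the direction of the gene from 17 bases before it.
Acot12: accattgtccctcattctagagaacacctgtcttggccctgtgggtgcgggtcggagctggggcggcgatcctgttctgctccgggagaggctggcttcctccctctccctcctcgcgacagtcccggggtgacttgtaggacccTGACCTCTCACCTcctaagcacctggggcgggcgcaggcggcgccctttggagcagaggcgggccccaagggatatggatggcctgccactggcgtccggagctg
Acadvl: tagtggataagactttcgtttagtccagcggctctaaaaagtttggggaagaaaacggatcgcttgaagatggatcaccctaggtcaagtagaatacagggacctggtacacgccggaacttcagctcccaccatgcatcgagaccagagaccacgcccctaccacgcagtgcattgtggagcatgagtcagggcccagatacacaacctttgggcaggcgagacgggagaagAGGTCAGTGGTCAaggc
A match describes letters only. The other genes raised in ZF-SGLT2i rats that had a window showed no match, which says only that these letters are not in this stretch.

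The first comparison set ZF rats against ZL rats. If these ZF rats were those of the drug study, obesity cannot be told apart here from purchase and earlier biopsies. The carnitine shuttle gene Cpt1a and the uncoupling protein gene Ucp2 were higher in ZF rats, while acyl-CoA synthetases of medium chains, medium and branched chain dehydrogenases, the hydratase Echs1 and several peroxisomal enzymes were lower. Of the 42 members tested, 3 were higher (Cpt1a, Eci1 and Ucp2) and 13 lower at an adjusted p under 0.05 in limma, beside 953 (8.19%) higher and 1232 (10.6%) lower among all genes tested. The median log2 difference was -0.08 over the members and -0.01 over all genes. The count over all genes, 2185, was 1389 without ZL rat 1, 1451 without ZF rat 2 and 1426 without ZF rat 3, and that over the members, 16, lay between 12 and 17 with any 1 rat left out. The split depended on the scaling. Of all calls 43.6% were higher, against 54.0% after quantile normalization, 78.0% with totals that leave out ribosomal RNA genes and 94.7% with each rat scaled to its proximal tubule markers. These last scalings moved the median of all genes to 0.11 and 0.30, and the members then had 8 higher and 11 lower calls, and 20 higher and 5 lower calls. Relative to the median of all genes, the members' median was -0.07 as deposited, -0.02 after quantile normalization, -0.07 without ribosomal RNA genes and -0.05 on the proximal tubule scale.

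The second comparison set ZF-SGLT2i rats against ZF rats. If these ZF rats were those of the time course, treatment cannot be told apart here from purchase and earlier biopsies. Acsl1, Acot12, Cpt1a, Cpt2, Ehhadh, Pex11a and Pdk4 were higher in ZF-SGLT2i rats. These 7 of 42 members stood beside 162 genes (1.39%) higher among all genes tested, and no member was lower beside 204 (1.75%). At an unadjusted p under 0.05 in limma, 17 members were higher and 1, Acot1, lower, beside 991 genes (8.52%) higher and 1005 (8.64%) lower among all tested. Of the 42, 35 lay above 0, with a median log2 difference of 0.11 against 0.01 over all genes. With any 1 rat left out 6 to 9 members were called, each time none of them lower. The count over all genes, 366, was less stable, at 207, 184 and 187 without ZF rats 2, 3 and 4, at 176, 210 and 182 without ZF-SGLT2i rats 3, 4 and 6, and at 570 without ZF rat 5. Of all calls 44.3% were higher, and 80.0% on the proximal tubule scale, which moved the median of all genes to 0.16 and gave 9 higher members and none lower.

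The third comparison set ZF-SGLT2i rats against ZL rats and shares its samples with the other comparisons, so its values are given side by side with theirs. It had 10 members higher and 11 lower, beside 1441 genes (12.4%) higher and 1743 (15%) lower among all tested. The members' median was 0.02 against -6.97e-05 over all genes. Of all calls 45.3% were higher, against 72.3% without ribosomal RNA genes, where the members had 15 higher and 8 lower calls, and 96.8% on the proximal tubule scale, where they had 30 and 3. These scalings moved the median of all genes to 0.11 and 0.46. In this comparison obesity and treatment cannot be told apart from each other, or from purchase and earlier biopsies.

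**Figure D1:**
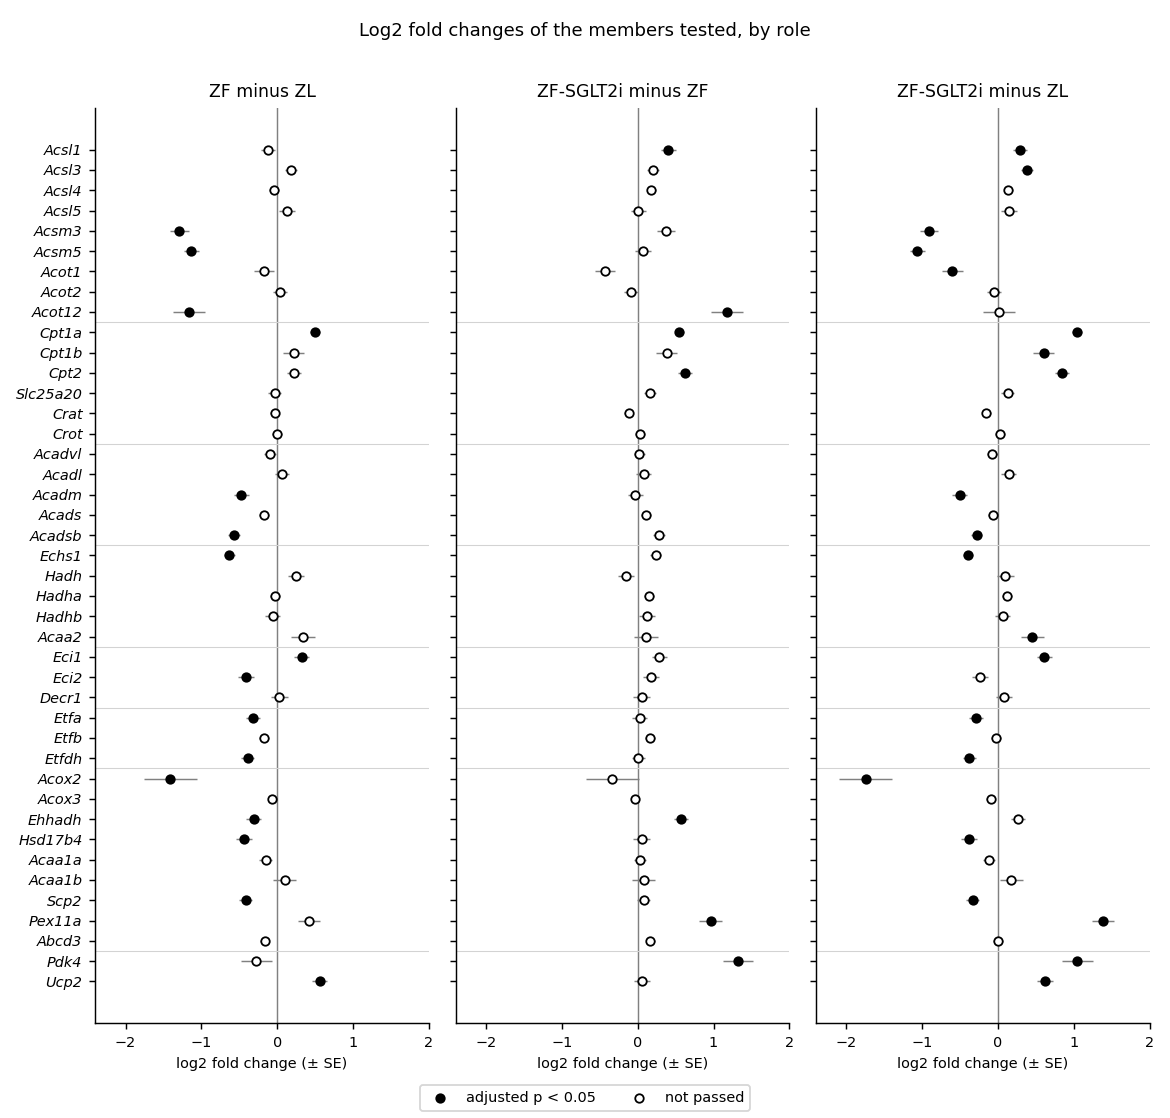
Log2 fold change with its SE of the 42 members tested, ordered by role with a line between roles, in each of the 3 comparisons, which share samples. Filled points passed an adjusted p of 0.05 (16, 7 and 21 members from left to right, as deposited, against 25, 9 and 33 on the proximal tubule scale), and in the middle panel the filled points all lie above 0.

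By pattern over the comparisons, Cpt1a alone was called higher at both steps. Acot12 and Ehhadh were lower in ZF and higher in ZF-SGLT2i than in ZF rats, and their ZF-SGLT2i values did not pass against ZL. Another 10 were lower in ZF and also in treated ZF rats against ZL, with no call between ZF and ZF-SGLT2i, and these were Acsm3, Acsm5, Acadm, Acadsb, Echs1, Etfa, Etfdh, Acox2, Hsd17b4 and Scp2. With each rat scaled to its proximal tubule markers, the calls of ZF-SGLT2i against ZL were kept for Acsm3, Acsm5 and Acox2. They were lost for the rest of these 10. No call was made for 18 members, with log2 differences from -0.18 (Etfb) to 0.25 (Hadh) between ZF and ZL and from -0.15 (Hadh) to 0.18 (Acsl4) between ZF-SGLT2i and ZF. The roles are described in turn.

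In the carnitine shuttle, Cpt1a, the carnitine palmitoyltransferase of the outer mitochondrial membrane and the controlled step of entry, was 235, 244, 256 and 219 in the ZL rats, 307, 348, 353 and 336 in the ZF rats and 507, 496, 503 and 463 in the ZF-SGLT2i rats. The 3 groups formed 3 separate steps, with every ZF rat above every ZL rat and every ZF-SGLT2i rat above every ZF rat. Cpt1a rose 1.41-fold in ZF over ZL (log2 0.49, SE 0.06, adjusted p = 0.00035, limma) and 1.47-fold in ZF-SGLT2i over ZF (log2 0.55, SE 0.06, adjusted p = 0.000586), so that ZF-SGLT2i rats stood 2.06-fold above ZL rats. Both calls held in all 22 alternatives run. The exact permutation test of a single member gave p = 0.0286 in each, the smallest that 4 rats against 4 allow. Some members called by limma had a larger p in this test. They were Etfa (0.0571), Hsd17b4 (0.0571) and Ehhadh (0.0857) in ZF against ZL, and Etfa (0.0571) and Acaa2 (0.0571) in ZF-SGLT2i against ZL.

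Cpt2, which hands the acyl group back to coenzyme A inside the mitochondrion, was 46.3, 46.7, 43.9 and 36.2 in ZL, 44.9, 46.4, 57.7 and 53.3 in ZF and 77.3, 81.9, 78.4 and 74.6 in treated ZF rats. ZL and ZF rats overlapped and all treated rats lay above both. Cpt2 was 1.54-fold higher in ZF-SGLT2i than in ZF (log2 0.62, SE 0.09, adjusted p = 0.00244, limma), a call kept in all 22 alternatives, while between ZF and ZL the log2 difference of 0.22 (SE 0.09) did not pass (adjusted p = 0.111). Cpt1b, the muscle form of the outer enzyme, averaged 8.51 ± 1.51, 10.1 ± 1.64 and 13.4 ± 2.03 (SD, n = 4) in ZL, ZF and ZF-SGLT2i, and passed only between ZF-SGLT2i and ZL (log2 0.60, SE 0.14, adjusted p = 0.0059). Reads of the similar Cpt1a and Cpt1b could in part be shared. The translocase Slc25a20, and Crat and Crot, which make carnitine esters of short and medium chains, were called in no comparison, and Crot stayed at 93.4, 93.6 and 95.4 in the group means.

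**Figure D2:**
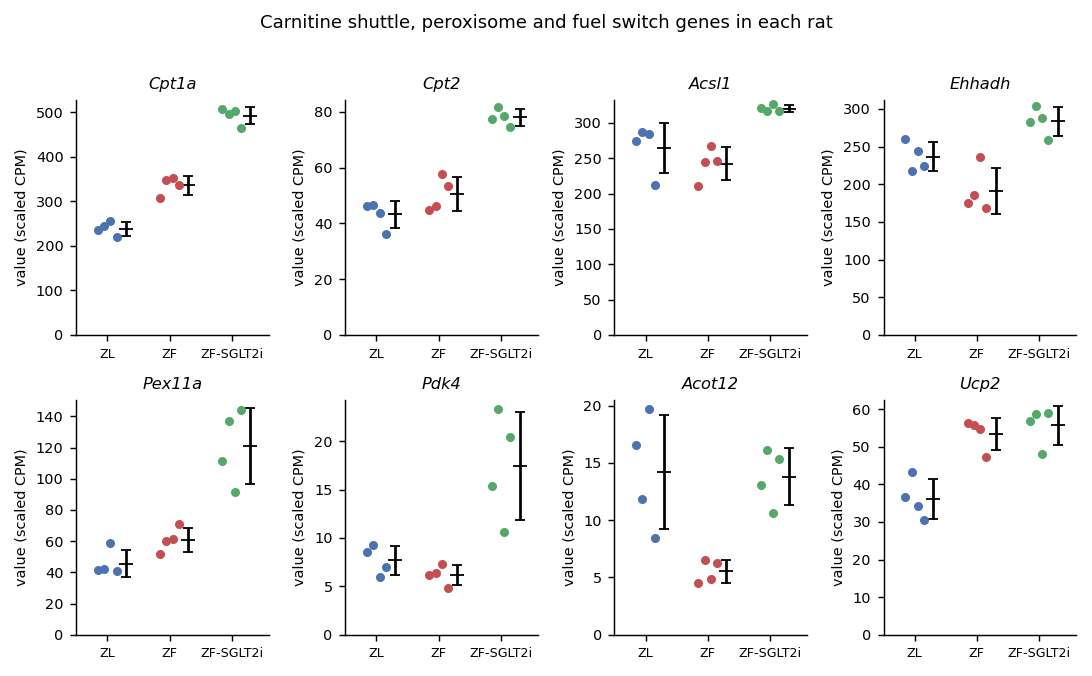
Scaled CPM (from 0) of 8 members in each rat, with the group mean and SD beside the points (n = 4). Cpt1a forms 3 steps, Cpt2, Pex11a and Pdk4 are set apart in the ZF-SGLT2i rats, Acot12 and Ehhadh have their lowest means in ZF rats, and Ucp2 is higher in both obese groups.

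Among the genes of activation, Acsl1, a long chain acyl-CoA synthetase of mitochondria and endoplasmic reticulum, was 274, 287, 284 and 212 in ZL, 211, 245, 268 and 246 in ZF and 321, 317, 326 and 317 in treated ZF rats. The treated rats lay close together above all others, while ZL and ZF overlapped. Acsl1 was 1.32-fold higher in ZF-SGLT2i than in ZF (log2 0.41, SE 0.09, adjusted p = 0.0309, limma). This call was lost on leaving out ZF rat 2 (adjusted p = 0.0955), ZF rat 3 (0.0767) or treated rat 2 (0.0717), 3 (0.085), 4 (0.0783) or 6 (0.0763). Acsl3, which serves lipid droplets, was higher in ZF-SGLT2i than in ZL (log2 0.38, SE 0.08, adjusted p = 0.00386), and Acsl4 and Acsl5 passed in none.

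The medium chain synthetases were the members with the smallest adjusted p in ZF against ZL. Acsm3 was 969, 744, 813 and 1178 in ZL, 396, 332, 403 and 361 in ZF and 442, 509, 516 and 470 in treated ZF rats. No value of the obese rats reached the lowest ZL rat, and the treated rats lay above the ZF rats. Acsm3 was 2.45-fold lower in ZF than in ZL (log2 -1.29, SE 0.12, adjusted p = 2.58e-05, limma), and the log2 difference of 0.38 (SE 0.12) between ZF-SGLT2i and ZF did not pass (adjusted p = 0.116).

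Acsm5 was 30.5, 23.9, 25.2 and 24.7 in ZL, 13.04, 10.2, 11.8 and 10.4 in ZF and 10.9, 12.1, 13.6 and 11.3 in treated ZF rats. The obese groups overlapped at a level below all ZL rats. It was 2.19-fold lower in ZF (log2 -1.13, SE 0.10, adjusted p = 2.33e-05, limma), and both medium chain calls held in all 22 alternatives. Reads may be shared within this family.

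Thioesterases free the fatty acid again. Acot12, which acts on acetyl-CoA, was 16.6, 11.9, 19.7 and 8.49 in ZL, 4.51, 6.51, 4.87 and 6.23 in ZF and 13.04, 16.2, 10.7 and 15.4 in treated ZF rats. All ZF rats lay below every rat of the other groups, and ZL and ZF-SGLT2i overlapped. Acot12 was 2.24-fold lower in ZF than in ZL (log2 -1.17, SE 0.21, adjusted p = 0.00281, limma) and 2.26-fold higher in ZF-SGLT2i than in ZF (log2 1.18, SE 0.21, adjusted p = 0.00859), and both calls held in all 22 alternatives. On the values themselves the ratios of the means were 0.390 and 2.50. ZF-SGLT2i and ZL differed by 0.01 (SE 0.21).

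Acot1, a cytosolic thioesterase of long chains, was 80.9, 69.9, 79.0 and 78.7 in ZL, 55.7, 69.6, 91.5 and 60.8 in ZF and 53.8, 45.0, 60.0 and 44.5 in treated ZF rats. The ZF range took in all ZL rats and, of the treated rats, only the highest, and treated and ZL rats did not overlap. Only ZF-SGLT2i against ZL passed, 1.52-fold lower (log2 -0.60, SE 0.13, adjusted p = 0.00497, limma), a call lost on the proximal tubule scale at -0.12 (adjusted p = 0.348). Acot1 was also lower in ZF-SGLT2i than in ZF (log2 -0.43, SE 0.13, unadjusted p = 0.00654, limma), which did not pass (adjusted p = 0.106). Its mitochondrial neighbour in sequence, Acot2, with which it could share reads, averaged 84.1 ± 4.46, 86.5 ± 12.9 and 80.9 ± 6.48 (SD, n = 4) and was not called.

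The first oxidation is made by dehydrogenases of different chain lengths. Acadm, for medium chains, was 416, 354, 359 and 483 in ZL, 278, 274, 335 and 267 in ZF and 280, 271, 306 and 269 in treated ZF rats. Both obese groups lay below all ZL rats and overlapped each other. Acadm was 1.39-fold lower in ZF (log2 -0.47, SE 0.10, adjusted p = 0.0061, limma), and on the proximal tubule scale this call was lost at -0.14 (adjusted p = 0.329).

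Acadsb, for short branched chains, averaged 63.4 ± 5.04 in ZL, 42.5 ± 4.53 in ZF and 51.8 ± 1.93 in treated ZF rats (SD, n = 4). The treated rats lay between the other groups without overlap. It was lower in ZF (log2 -0.57, SE 0.08, adjusted p = 0.000487, limma), with the call lost on the proximal tubule scale at -0.24 (adjusted p = 0.131). The difference of 0.28 (SE 0.08) between ZF-SGLT2i and ZF missed the threshold (adjusted p = 0.0659). Acadvl and Acadl, for very long and long chains, and Acads, for short chains, passed in no comparison, with log2 differences of -0.10, 0.06 and -0.17 between ZF and ZL.

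In the later steps of the mitochondrial cycle, Echs1, the short chain enoyl-CoA hydratase, was 356, 312, 332 and 340 in ZL, 211, 226, 234 and 196 in ZF and 266, 255, 267 and 231 in treated ZF rats. All obese rats lay below all ZL rats, and the highest ZF rat passed the lowest treated rat. It was 1.55-fold lower in ZF (log2 -0.63, SE 0.07, adjusted p = 9.81e-05, limma), with the call kept in all 22 alternatives, and its log2 difference of 0.24 (SE 0.07) with treatment did not pass (adjusted p = 0.0889).

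Hadha, the alpha subunit of the trifunctional protein for long chains, was 301, 302, 307 and 302 in ZL, 280, 294, 330 and 284 in ZF and 328, 329, 356 and 303 in treated ZF rats. The groups overlapped in each comparison, and none was called (log2 -0.03 at the first and 0.15 at the second comparison, SE 0.06). Its beta subunit Hadhb and the dehydrogenase Hadh likewise passed in none. The thiolase Acaa2 averaged 123 ± 26.3, 154 ± 30.2 and 165 ± 15.6 (SD, n = 4), and passed between ZF-SGLT2i and ZL (log2 0.45, SE 0.15, adjusted p = 0.0422, limma). That call was lost without ZL rat 1 (0.089) or 4 (0.107), ZF rat 3 (0.0531), or treated rat 2 (0.089), 3 (0.0885) or 4 (0.0952). Without ZL rat 4 the log2 difference itself was 0.30.

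The auxiliary isomerases of unsaturated fatty acids were called in opposite directions between ZF and ZL. Eci1, of mitochondria, was 80.9, 79.3, 76.8 and 74.4 in ZL, 93.2, 92.8, 123 and 85.9 in ZF and 121, 119, 134 and 104 in treated ZF rats. Every obese rat lay above every ZL rat. It was 1.25-fold higher in ZF (log2 0.32, SE 0.10, adjusted p = 0.036, limma), and 1.52-fold higher in ZF-SGLT2i than in ZL (log2 0.61, SE 0.10, adjusted p = 0.000736). The former call was lost without any 1 of the ZL rats (adjusted p of 0.0621, 0.0512, 0.0707 and 0.0742 for rats 1 to 4), without ZF rat 2 (0.0567), 3 (0.0585) or 4 (0.0599), or treated rat 3 (0.0503). Without ZF rat 4 its log2 difference was 0.22.

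Eci2, which is also found in peroxisomes, averaged 68.9 ± 5.53, 52.0 ± 8.38 and 58.6 ± 6.07 (SD, n = 4) and was 1.33-fold lower in ZF than in ZL (log2 -0.41, SE 0.10, adjusted p = 0.0158, limma), a call lost without ZL rat 1 (0.0538) and on the proximal tubule scale, at -0.08 (adjusted p = 0.481). With treatment Eci1 and Eci2 stood at 0.28 and 0.18, neither called. The reductase Decr1, for double bonds at even positions, passed in no comparison.

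Of the 3 genes of electron transfer 2 were lower in ZF than in ZL rats, neither of them called on the proximal tubule scale. Etfdh, the oxidoreductase that feeds ubiquinone, averaged 124 ± 3.80 in ZL, 94.6 ± 11.8 in ZF and 94.9 ± 8.51 in treated ZF rats (SD, n = 4) and fell by 0.39 on the log2 scale in ZF (SE 0.08, adjusted p = 0.00754, limma), against -0.06 (adjusted p = 0.596) on the proximal tubule scale. Etfa, the alpha subunit of the flavoprotein, averaged 220 ± 10.2, 178 ± 25.2 and 181 ± 20.1, with a log2 difference of -0.32 (SE 0.10, adjusted p = 0.0331) in ZF, which turned to 0.0135 on the proximal tubule scale. The Etfa call was lost without ZL rat 1 (0.0848), 3 (0.0634) or 4 (0.0641) and without ZF rat 2 (0.1001), 3 (0.066) or 5 (0.0919). The beta subunit Etfb was at -0.18 (adjusted p = 0.0724), and with treatment Etfdh, Etfa and Etfb stood at 0.01, 0.03 and 0.16, none called.

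**Figure D3:**
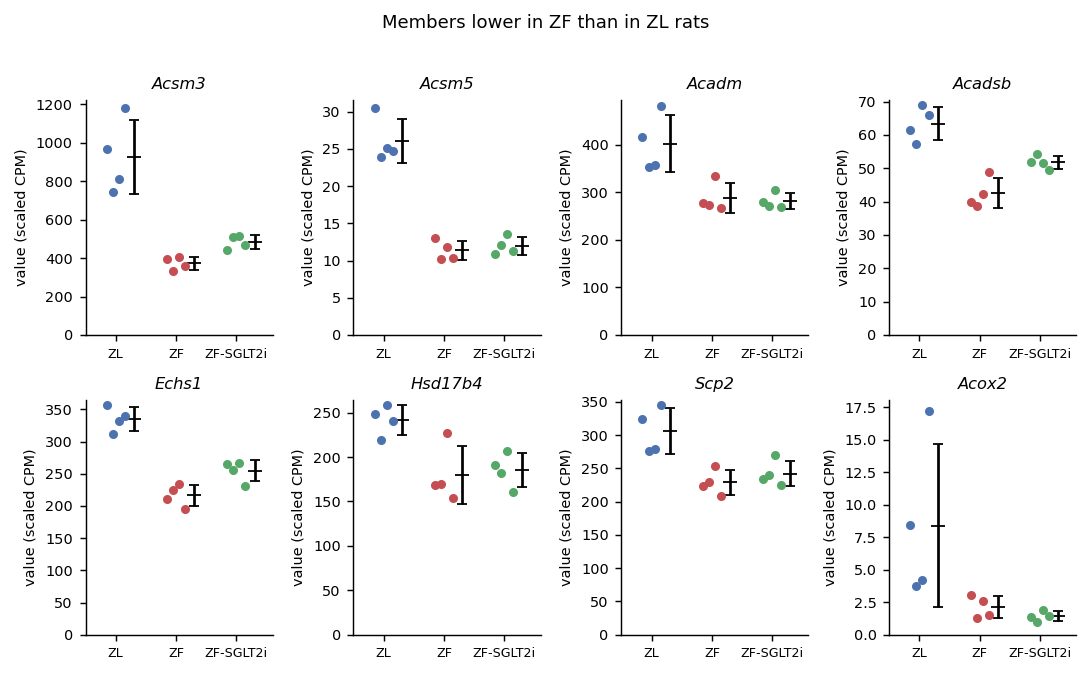
Scaled CPM (from 0) of 8 members that were lower in ZF than in ZL rats as deposited, in each rat, with the group mean and SD beside the points (n = 4). The ZF and ZF-SGLT2i points share a level below ZL for Acsm5 and Acadm, while for Acadsb the treated rats lie between the other groups.

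In the peroxisome, Ehhadh, the bifunctional hydratase and dehydrogenase, was 260, 217, 244 and 225 in ZL, 175, 186, 236 and 169 in ZF and 283, 304, 288 and 258 in treated ZF rats. All treated rats lay above all ZF rats, of which rat 4 alone was within the ZL range. Ehhadh was 1.49-fold higher in ZF-SGLT2i than in ZF (log2 0.57, SE 0.10, adjusted p = 0.00593, limma), a call kept in all 22 alternatives. The difference of ZF from ZL was weaker (log2 -0.31, SE 0.10, adjusted p = 0.0375) and was lost without ZL rat 1 (0.111) or 3 (0.0803), ZF rat 2 (0.105), 3 (0.0878) or 5 (0.105), or ZF-SGLT2i rat 2 (0.0501), and turned to 0.0187 on the proximal tubule scale.

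Pex11a, which takes part in the division of peroxisomes, was 41.3, 42.0, 58.5 and 40.6 in ZL, 52.0, 60.0, 61.2 and 70.7 in ZF and 111, 137, 91.5 and 144 in treated ZF rats. The treated rats were all above the highest untreated rat, and ZL rat 3 fell among the ZF rats. Pex11a was 1.95-fold higher in ZF-SGLT2i than in ZF (log2 0.96, SE 0.15, adjusted p = 0.00315, limma), while its log2 difference of 0.42 (SE 0.15) between ZF and ZL missed the threshold (adjusted p = 0.0621).

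Hsd17b4, the bifunctional enzyme for branched and very long chains, was 248, 219, 259 and 240 in ZL, 169, 170, 227 and 154 in ZF and 191, 182, 206 and 161 in treated ZF rats. ZF rat 4 alone reached the ZL range, and ZF and treated rats overlapped. It was 1.35-fold lower in ZF than in ZL (log2 -0.44, SE 0.11, adjusted p = 0.0141, limma) and 1.31-fold lower in ZF-SGLT2i than in ZL (log2 -0.39, SE 0.11, adjusted p = 0.0177), the latter lost without ZF-SGLT2i rat 6 (0.0615). On the proximal tubule scale neither was called, at -0.11 (adjusted p = 0.328) and 0.11 (adjusted p = 0.292).

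Scp2, the peroxisomal thiolase and sterol carrier, averaged 306 ± 34.3, 229 ± 18.3 and 242 ± 19.4 (SD, n = 4) and fell by 0.42 in ZF on the log2 scale (SE 0.09, adjusted p = 0.00551, limma), against -0.08 (adjusted p = 0.528) on the proximal tubule scale. Acox2, the oxidase of branched chains and bile acid precursors, was 8.43, 3.73, 4.20 and 17.2 in ZL, 3.07, 1.303, 2.56 and 1.53 in ZF and 1.33, 1.01, 1.91 and 1.45 in treated ZF rats. The ZL rats were far apart, and each lay above every obese rat. Acox2 was 2.66-fold lower in ZF (log2 -1.41, SE 0.35, adjusted p = 0.0137), a gene of 10 to 193 reads per rat. Acox3, the thiolases Acaa1a and Acaa1b, which may share reads, and the transporter Abcd3 were not called. Acaa1a averaged 106, 95.9 and 97.3 and Acaa1b 31.1, 33.5 and 35.2 in ZL, ZF and ZF-SGLT2i.

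The last members govern fuel choice and uncoupling. Pdk4, the kinase that shuts pyruvate dehydrogenase when fat is burned, was 8.52, 9.28, 6.01 and 6.97 in ZL, 6.14, 6.41, 7.26 and 4.81 in ZF and 15.3, 23.3, 10.7 and 20.4 in treated ZF rats. Every treated rat was above every untreated rat, and ZL and ZF overlapped. Pdk4 was 2.50-fold higher in ZF-SGLT2i than in ZF on the log2(value + 1) scale (log2 1.32, SE 0.20, adjusted p = 0.00315, limma), with a ratio of the means of 2.83.

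Ucp2, an uncoupling protein of the inner mitochondrial membrane, was 36.5, 43.2, 34.1 and 30.6 in ZL, 56.3, 55.7, 54.6 and 47.2 in ZF and 56.9, 58.8, 48.1 and 59.1 in treated ZF rats. All obese rats lay above all ZL rats, and the obese groups overlapped. Ucp2 was 1.48-fold higher in ZF than in ZL (log2 0.56, SE 0.10, adjusted p = 0.00266, limma) and differed by 0.06 (SE 0.10) between ZF-SGLT2i and ZF.

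Within groups, single rats were set apart over many members at once. ZF rat 4 had the highest value of the 4 ZF rats in 30 of the 42 members tested, and ZF-SGLT2i rat 4 that of its group in 25, while ZF-SGLT2i rat 6 was lowest in 25. The 43 members summed to 5166, 5494, 6246 and 5265 in ZF rats 2 to 5 and to 6250, 6344, 6627 and 5914 in ZF-SGLT2i rats 2, 3, 4 and 6, against 6210 to 6755 in ZL. ZF rat 4 had the smallest share of ribosomal RNA genes of its group, 8.82% against 11.2% to 12.0%, and the highest summed proximal tubule markers, 31430 against 23425 to 26212. ZF-SGLT2i rat 6 had the largest ribosomal share, 15.2%, and the lowest such sum, 19948. Their part in the members' values was not tested. Without ZF rat 4 16 members were called between ZF and ZL and 8 between the treated and untreated ZF rats.

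Markers of tubule segments and of other cell types were called in some lists and comparisons and not in others. Of 21 proximal tubule markers 8 were lower and 1 higher in ZF than in ZL (median log2 -0.21) and 2 lower with treatment (median -0.15), and their sums averaged 34643, 26703 and 23322 in ZL, ZF and ZF-SGLT2i. Of 9 markers of its straight part 6 were lower in ZF (median -1.69) and 1 was lower with treatment (median -0.37). They summed to 3180, 1275, 1815 and 5594 in ZL rats 1 to 4, 948, 365, 677 and 256 in ZF rats 2 to 5, and 149 to 224 in the ZF-SGLT2i rats. Kap, the kidney androgen regulated protein, had the highest value of them. In an order noticed after the values were seen, the ZL rats stood 4, 1, 3, 2 from high to low in this sum and also in Acsm3, Acadm, Scp2 and Acox2, which are 4 of the 13 members lower in ZF. Over all 42 members tested 5 had this order (11.9%), the other being Crot, called in no comparison, and over all genes tested 962 did (8.27%). Of 11 injured tubule markers, with the highest value in Spp1, 9 were higher in ZF than in ZL (median 1.04), and Vcam1 alone was called, lower, with treatment. Of 12 collecting duct markers, highest in Hsd11b2, Scnn1g was higher in ZF than in ZL (median of the list 0.18), all 12 lay above 0 with treatment (median 0.31, 7 at an unadjusted p under 0.05 in limma) with Aqp2 called, and 8 were higher in ZF-SGLT2i than in ZL (median 0.62). Their sums averaged 2643, 3021 and 3912 in ZL, ZF and ZF-SGLT2i. Of 7 fibroblast and pericyte markers tested, highest in Pdgfra, 2 were higher in ZF than in ZL (median 0.40) and 4 lower with treatment (median -0.75), and the sums averaged 611, 789 and 473 in ZL, ZF and ZF-SGLT2i. Of 13 podocyte markers, highest in Podxl, 7 were higher and 1 lower in ZF (median 0.33), and of 11 endothelial markers, highest in Kdr, 3 were higher (median 0.31), with none of either list called with treatment by limma (2 of each at an unadjusted p under 0.05). Of 10 macrophage and lymphocyte markers tested, none was called in either comparison as deposited (4 and 3 at an unadjusted p under 0.05). In ZF against ZL the counts of higher calls rose on the proximal tubule scale to 8 for macrophage and lymphocyte, 6 for fibroblast and pericyte, 11 for podocyte and 8 for endothelial markers, and with totals that leave out ribosomal RNA genes they were 2, 4, 10 and 8. Of 4 red blood cell markers tested Hba2 was higher in ZF (median of the list 1.16), none was called with treatment by limma (0 also at an unadjusted p under 0.05), and the sums averaged 5.14, 18.6 and 29.0. Of 7 thick limb and distal tubule markers tested, 3 lay above and 4 below 0 in ZF against ZL (median -0.10), with Egf alone called, lower. None of them was called with treatment (median 0.02, with 2 higher and 1 lower at an unadjusted p under 0.05 in limma). Of 4 liver markers tested, 3 lay above and 1 below 0 in ZF (median 0.12), with Cyp2c11 alone called, lower. With treatment 1 lay above and 3 below 0 (median -0.48), with Serpina1 alone called, higher. The part of all these markers in the members' results was not tested.

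Beyond the members, a list of 36 further genes of activation, thioesters and transport had 26 tested, 1 higher and 9 lower in ZF (median -0.16) and 3 higher with treatment (median 0.09). On the proximal tubule scale the ZF counts were 3 higher and 3 lower, with the list's median at -0.14 relative to that of all genes against -0.15 as deposited. Acss2, which activates acetate, and Acot5, a peroxisomal thioesterase, were lower in ZF (log2 -1.59 and -1.80, adjusted p = 0.00811 and 0.00115, limma), as was Acsf2 (-0.79), and Acot7 was higher (0.37). Acss2 was 484, 208, 250 and 798 in the ZL rats. The fatty acid transporters Slc27a1 and Slc27a2 were 1.38-fold and 1.26-fold higher in ZF-SGLT2i than in ZF (log2 0.46 and 0.33, adjusted p = 0.00112 and 0.0352), and Slc27a2 had been lower in ZF than in ZL (-0.44). Acot9, a mitochondrial thioesterase, was also higher with treatment (0.41).

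Other mitochondrial oxidation genes, 21 tested, had 11 lower and none higher in ZF (median -0.27, and 15 lower and 0 higher at an unadjusted p under 0.05 in limma, which 2080 genes, 17.9%, passed lower and 1768, 15.2%, higher among all tested), and 2 higher with treatment (median 0.10). On the proximal tubule scale 3 were higher and 2 lower in ZF, and the median relative to all genes was -0.25 there and -0.26 as deposited. Echdc3 was lower in ZF and higher with treatment (log2 -0.97 and 0.74, adjusted p = 0.002 and 0.0282, limma), and so was Pcca, a subunit of propionyl-CoA carboxylase (-0.64 and 0.26). Hsd17b10, a dehydrogenase of branched chain and short chain substrates, was lower in ZF (-0.50).

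Of 47 other peroxisomal genes tested, 16 were lower and none higher in ZF (median -0.16, and 20 lower and 1 higher at an unadjusted p under 0.05 in limma), and 1 was higher and 2 lower with treatment. On the proximal tubule scale the ZF counts were 10 higher and 4 lower, and the median relative to all genes was -0.14 there and -0.15 as deposited. Amacr, the racemase of branched acyl-CoAs, Cat, catalase, and Pxmp2, a channel of the peroxisomal membrane, were lower in ZF (log2 -0.93, -0.82 and -0.74). Phyh, of phytanic acid breakdown, was higher with treatment (0.29), whereas the hydroxyacid oxidases Hao1 and Hao2 were lower (-1.11 and -0.77).

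**Figure D4:**
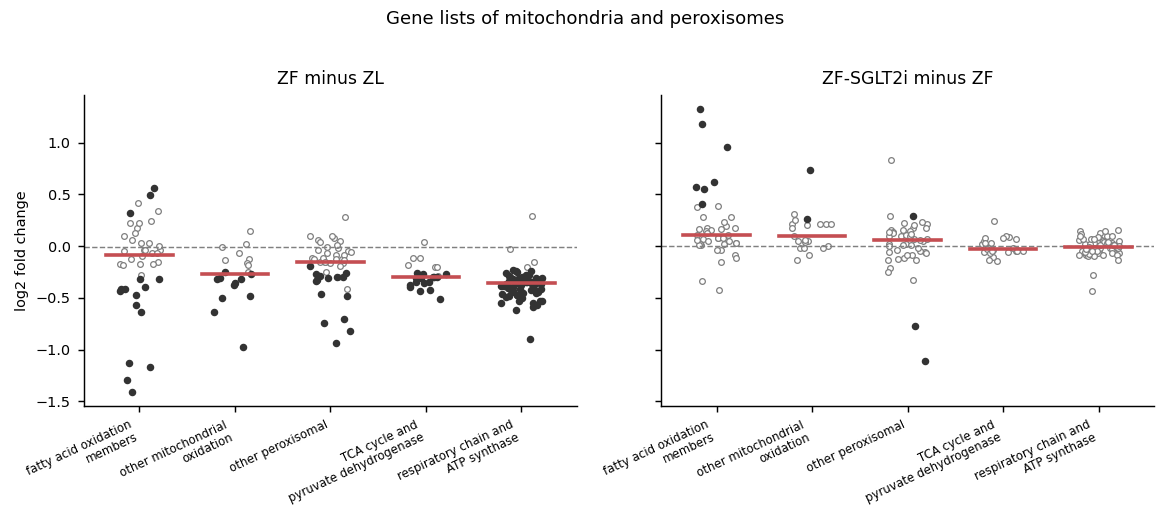
Log2 fold change of each gene of 5 lists, ZF minus ZL on the left and ZF-SGLT2i minus ZF on the right, with filled points at an adjusted p under 0.05, the list's median in red and the median of all genes tested as a dashed line. As deposited, 70 of 75 respiratory chain genes lie filled below 0 on the left (1 of 75 on the proximal tubule scale) and none is filled on the right, where the filled members lie above 0.

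Most tested genes of the tricarboxylic acid cycle and respiratory chain lists were called lower in ZF rats as deposited. None was called with treatment. Of 25 genes of the tricarboxylic acid cycle and pyruvate dehydrogenase 18 were lower in ZF (median -0.30), with Mpc2 (-0.51), Pdha1 (-0.44) and Mpc1 (-0.42), of pyruvate entry and oxidation, at the largest called differences. Of 75 subunits of the respiratory chain and ATP synthase tested, 70 were lower in ZF (median -0.36). In ZF-SGLT2i against ZF none of either list was called by limma (at an unadjusted p under 0.05, 1 cycle gene was higher and of the subunits 1 was higher and 1 lower), and the medians were -0.03 and -0.01. Against ZL, ZF-SGLT2i rats had 67 of the 75 subunits lower (median -0.37). Of the 25 cycle genes 17 were lower and 1 higher there (median -0.32). Most of these calls were lost on the proximal tubule scale, where 1 of 75 subunits and 0 cycle genes were lower in ZF and 1 cycle gene was higher. Relative to the median of all genes the subunits' median was -0.35 as deposited and -0.33 on that scale, and that of the cycle genes -0.29 and -0.27. With totals that leave out ribosomal RNA genes 45 subunits and 7 cycle genes were lower in ZF. In ZF-SGLT2i against ZL the proximal tubule scale gave 9 subunits higher and 1 lower (median 0.12) and 11 cycle genes higher and none lower, with medians of -0.34 and -0.29 relative to all genes.

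Of 44 regulators tested, 2 were higher and 6 lower in ZF (median -0.07). On the proximal tubule scale the ZF counts were 15 higher and 3 lower (median relative to all genes -0.05, and -0.06 as deposited). With treatment 6 were higher and none lower (median 0.05, and 10 higher and 2 lower at an unadjusted p under 0.05 in limma). That count of 6 was 4 after quantile normalization, without ribosomal RNA genes and on the proximal tubule scale. It was 3 with the rat number as a term and 7 with array quality weights. Which regulators kept their calls is not reported here. Ppara, the gene of PPAR alpha, was 44.9, 48.5, 50.1 and 36.7 in ZL, 54.6, 68.0, 63.6 and 84.7 in ZF and 90.3, 104, 108 and 118 in treated ZF rats. Like Cpt1a it formed 3 steps without overlap. Ppara was higher in ZF than in ZL (log2 0.57, SE 0.13, adjusted p = 0.00857, limma) and in ZF-SGLT2i than in ZF (log2 0.64, SE 0.13, adjusted p = 0.0162).

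Creb3l3, a liver and gut transcription factor that acts with PPAR alpha, was 0.897, 0.433, 0.454 and 0.179 in ZL, 2.21, 3.31, 5.38 and 4.70 in ZF and 10.3, 13.3, 8.35 and 12.3 in treated ZF rats. Its values rose at both steps without overlap (log2 1.69 and 1.33, SE 0.22, adjusted p = 0.000311 and 0.00517, limma), on few reads in ZL. All ZL values lay below 1, so Creb3l3 passed the filter on low values only through the obese rats. Its call against ZL therefore carries no weight. Ppard, the gene of PPAR delta, went another way, with 109, 86.9, 96.3 and 83.9 in ZL, 35.6, 34.4, 35.04 and 34.98 in ZF and 37.0, 36.1, 34.2 and 37.3 in treated ZF rats. All obese rats lay in a narrow band far below ZL (ZF minus ZL log2 -1.39, SE 0.07, adjusted p = 2.15e-07).

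Klf15, a factor of the fasting response, was 1.56-fold higher in ZF-SGLT2i than in ZF (log2 0.64, SE 0.12, adjusted p = 0.0115, limma) after a fall of 0.40 in ZF. Nr0b2, a corepressor, was lower in ZF (-0.87) and higher with treatment (0.61), and Pdp2, a phosphatase that activates pyruvate dehydrogenase, was lower in ZF (-0.75). The coactivator gene Ppargc1a (log2 -0.16 and 0.22 at the 2 steps), Pparg (-0.39 and -0.05, at values of 0.223 to 2.50), Esrra (-0.06 and -0.03) and Hnf4a (-0.16 and -0.09) were not called at either step.

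Known PPAR alpha targets outside the members, 35 tested, had 2 higher and 11 lower in ZF (median -0.07) and 5 higher and none lower with treatment (median 0.12, and 12 higher and 4 lower at an unadjusted p under 0.05 in limma), and on the proximal tubule scale the ZF counts were 15 higher and 6 lower (median relative to all genes -0.04, and -0.06 as deposited). Vnn1, a pantetheinase, was higher in ZF (0.98), while Cidec, of lipid droplets, Acot5 and Cyp4a8, a fatty acid hydroxylase, were lower (-2.22, -1.80 and -1.43). Cyp4a1, another fatty acid hydroxylase whose reads could be shared in its family, and Pnpla2, the triglyceride lipase of adipose and other tissues, were higher with treatment (0.71 each, adjusted p = 0.0295 and 0.000534).

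**Figure D5:**
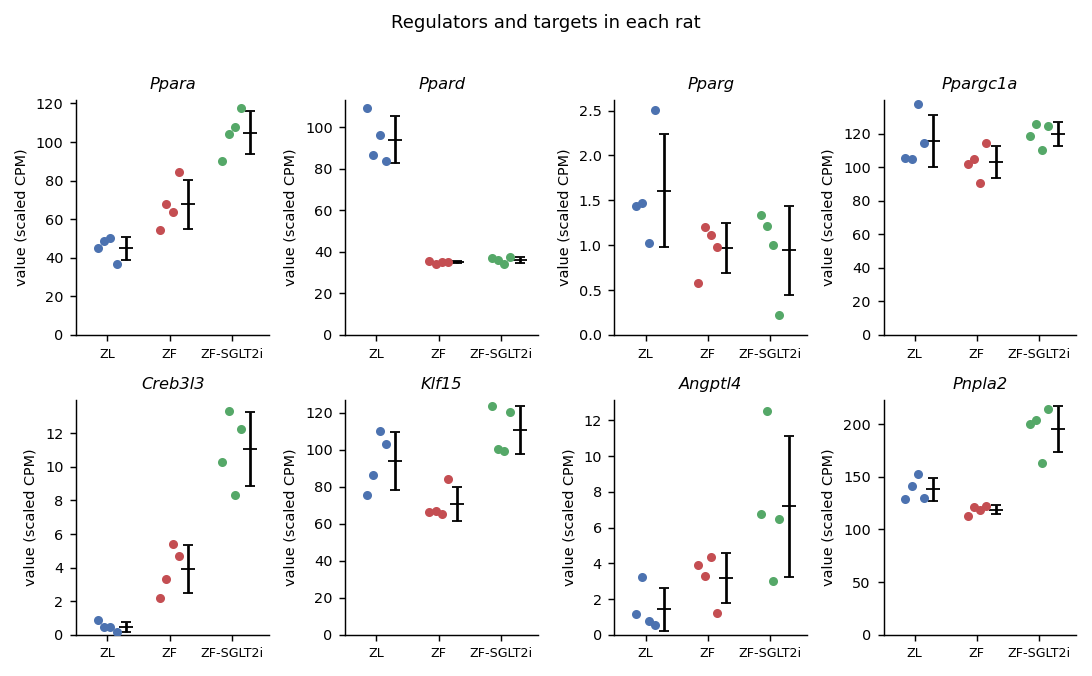
Scaled CPM (from 0) of 8 regulators and targets in each rat, with the group mean and SD beside the points (n = 4). Ppara and Creb3l3 rise in 3 steps from ZL to ZF to ZF-SGLT2i, with Creb3l3 below the filter's value of 1 in all ZL rats. Klf15 and Pnpla2 are higher in ZF-SGLT2i than in ZF rats, Ppard is lower in both obese groups, and Pparg, Ppargc1a and Angptl4 overlap between neighbouring groups.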

How the data were processed

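Total RNA from the renal cortex of 12 rats was depleted of ribosomal RNA, made into strand-specific libraries and sequenced from both ends. The authors deposited 1 signal value per gene and rat, a CPM value (reads scaled to the library total) with a library scaling factor, after leaving out genes with few reads. The submitters' processing notes name Trimmomatic 0.38, Bowtie2, RSEM 1.3.0, edgeR and the genome build rn6, without their roles. Every value was a whole multiple of the rat's smallest value above 0 (tolerance 0.001). No column belonged to another sample. Rats of a group were not copies of each other (chi-square per gene of 5.63 to 52.5). The labels give rat numbers and no more on how replicates were made, so p-values measure the spread between these rats.

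The 3 groups were fitted together with limma 3.58.1 in R 4.3.3 (eBayes with trend) on log2(value + 1), for the 11633 genes that reached a value of 1 in 4 or more rats. P-values were two-sided and adjusted by the Benjamini-Hochberg method over all genes tested, with calls under 0.05. Single members also had an exact two-sided permutation test of 70 assignments. Lists were described by counts and medians, without a test. The members and all gene lists were chosen with earlier results of these data known. Rats' values are printed for 8 well known members, every member called with treatment and the 5 highest and 5 lowest called members of the other comparisons. From each other list the up to 3 highest and 3 lowest called genes were named with a fixed set of regulators. Some genes named by it are not reported here. Alternatives were another pseudocount (0.1), filter, scaling or weighting, a fit of 2 groups alone, the rat number as a term and each rat left out. Python 3.11.15 and RefSeq promoters of GRCr8 were used for the rest.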

Additional observations from a re-analysis of the deposited data

Results flagged for a closer look

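Within each group of 4 rats, the gap of the most extreme rat to its nearest neighbour was compared with the range of the group by Dixon's 95% limit, for the 42 members tested. Of 126 groups 9 passed, where chance gives about 6.3 (1 in 20). In the ZL rats these were Acsl1 in rat 4 (212, others 274 to 287), Acadl in rat 2 (112, others 133 to 136), Decr1 in rat 2 (72.04, others 80.0 to 80.5) and Pex11a in rat 3 (58.5, others 40.6 to 42.0). In the ZF rats they were Acsl3 in rat 5 (126, others 95.7 to 99.1) and, all in rat 4, Crot (104, others 89.2 to 91.3), Acadm (335, others 267 to 278) and Acaa2 (199.6, others 135 to 142). In the ZF-SGLT2i rats Crot was apart in rat 4 (104, others 91.8 to 93.4). The cause of these gaps was not tested.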

How the results depend on the processing

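Of the members called, 6 of 16 in ZF against ZL, 5 of 7 in the comparison with untreated ZF rats and 10 of 21 in ZF-SGLT2i against ZL kept direction and call in every alternative run. Scaled to proximal tubule markers, calls over all genes were 4557, 230 and 8407 in these comparisons, and 25 members were called in the first and 33 in the last. Signs turned there for Etfa (0.0135) and Ehhadh (0.0187) between ZF and ZL and for Acadsb (0.20), Echs1 (0.10), Etfa (0.20), Etfdh (0.11), Hsd17b4 (0.11) and Scp2 (0.16) in ZF-SGLT2i against ZL, where the median of all genes had moved to 0.30 and 0.46, so that relative to it all 8 stayed below 0 (-0.36 to -0.26). With array quality weights 689 genes and 13 members (12 higher, 1 lower) were called in ZF-SGLT2i against ZF. With any 1 rat left out, calls over all genes ranged from 1389 to 2453, 176 to 570 and 2241 to 3302. The rat number as a replicate block gave 807, 223 and 1502 calls over all genes and 11, 5 and 15 members. ZL rat 1, ZF rat 5 and ZF-SGLT2i rat 6 share their number with no other rat. The block fits these rats exactly, so they do not bear on its comparisons and fewer rats are left to measure the spread. Same-numbered rats had correlations of -0.38 to 0.25 in their deviations, within the -0.40 to 0.455 of rats with different numbers. This gives no sign that the numbers pair the rats but cannot exclude it. Under the block Pdk4 (adjusted p = 0.0664) and Acsl1 (0.178) were no longer called in ZF-SGLT2i against ZF. The block also ended the calls of Acox2 (adjusted p = 0.073, limma), Hsd17b4 (0.07), Eci2 (0.084), Etfa (0.069) and Ehhadh (0.22) in ZF against ZL. In ZF-SGLT2i against ZL it ended those of Acsl1, Cpt1b, Acadsb, Acaa2, Etfa and Hsd17b4. Between ZF and ZL it left 25 of 75 respiratory chain subunits and 3 of 25 cycle genes called lower. The cause of these changes was not tested. The edgeR and DESeq2 alternatives were not run. In ZF rat 3 and treated rats 3 and 4 the value taken as 1 read lay close to 0.1. There it was not accepted for count models, although every value was a whole multiple of it. The read numbers given for these rats rest on the same step and are subject to this doubt. Genes with few reads, such as Acox2 and Abcd2, are limited by depth.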
